A study of Mus musculus with 32 samples.

Results

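The comparison asked how the response to a focal ischaemic injury differed between the spinal cord and the cerebrum of mice 7 days later. For every gene, the response of the cerebrum (cerebral day 7 minus cerebral control) was taken from the response of the spinal cord (spinal day 7 minus spinal control). The 4 groups held 4 arrays each, 16 of the 32 arrays measured, and all 19505 genes measured by a probe with 1 gene symbol entered the comparison. The remaining arrays, from days 1 and 3, added to the estimate of the spread and served as earlier times.

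All mice were wild-type C57BL/6J males, 6 to 12 weeks old at the start. The injury was photothrombosis, a clotting of vessels by light after a photosensitive dye is given, aimed at the spinal cord (scPT) or at the cerebrum (cPT). The groups were spinal cord at day 7 after scPT, cerebrum at day 7 after cPT, control spinal cord, and control cerebrum. No agent, allele or transgene beyond this is named in the labels. Surgery on the controls, the size of the tissue piece and separate animals for each array are not stated in the labels, so p-values reflect only how far these samples spread.

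As background, an ischaemic lesion of the nervous tissue is invaded from the blood by neutrophils and then by monocytes that become macrophages. Together with the resident microglia these cells clear dead cells and myelin. Astrocytes, fibroblasts and pericytes form a scar around the lesion, and damaged neurons die or lose their synapses. White matter makes up a large share of the spinal cord and carries long myelinated axons, while the cerebrum holds more grey matter.

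The tissue labels were checked first. Hoxb9, Hoxc8 and Hoxb8, homeobox genes of the trunk, and Slc6a5 and Glra1, the glycine transporter and a glycine receptor subunit of hindbrain and spinal neurons, were higher in spinal day 7 than in cerebral day 7 by log2 0.93 to 5.65, and in spinal than in cerebral controls by 2.08 to 6.54. Tbr1 and Neurod6, transcription factors of cortical neurons, and Slc17a7, the vesicular glutamate transporter of those neurons, were lower in spinal day 7 than in cerebral day 7 by -3.20 to -7.93, and in spinal than in cerebral controls by -3.56 to -6.12. All 4 groups therefore carried the markers of their labelled tissue. The sample titles of spinal day 7 begin with P and those of the other 7 groups with G. Were these letters a batch, it could not be told apart from the group.

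Some control arrays carried transcripts of neighbouring tissue, as the plot of marker scores shows. The mean of 14 skeletal muscle genes was 0.45, 0.06, 0.20 and 0.59 in spinal day 7 and -0.34 to -0.23 in cerebral day 7, against 3.47, 2.89, 1.10 and 0.20 in spinal controls and -0.25 to -0.20 in cerebral controls. The mean of 9 sensory neuron genes was -0.22 to 1.75 in spinal day 7 and 0.05, 3.93, 0.04 and 3.07 in the 4 spinal controls. The mean of 10 genes of the meninges ran from 0.30 to 1.75 in spinal day 7 and from -1.16 to 1.77 in spinal controls, highest in controls 2 and 4. The mean of 10 Schwann cell genes was also higher in spinal controls 2 and 4, at 1.04 and 0.70, than in controls 1 and 3, at 0.00 and -0.09. The mean of 15 thalamic and subcortical genes was 0.60, 0.41, 0.35 and 0.44 in cerebral day 7, against 0.29, -0.14, -0.67 and -0.26 in cerebral controls. The part of these tissues in the results was not tested beyond refits without such arrays.

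**Figure D1:**
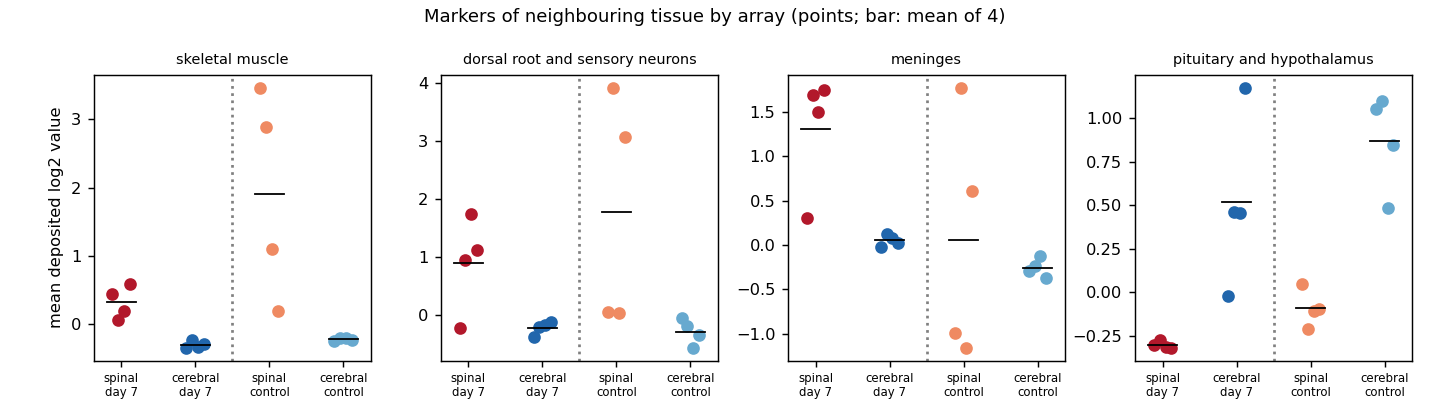
Mean deposited log2 value of 4 marker lists on each array (points) of spinal day 7, cerebral day 7, spinal control and cerebral control, with the group mean as a bar. Spinal controls 1 and 2 stand high for skeletal muscle (3.47 and 2.89) and spinal controls 2 and 4 for sensory neurons (3.93 and 3.07). The dotted line parts the day 7 arrays from the controls, whose zeros differ.

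Deposited values are log2 values centred per probe, and the 8 day 7 arrays share a zero that differs from that of the controls. They can be read against each other within day 7 and within the controls. The difference of responses needs no common zero, since any shift shared by all day 7 arrays drops out. The response of each tissue alone does need one, and was called only where it exceeded the uncertainty of the zero rebuilt for each probe. In bulk tissue, fewer cells of a type and less RNA per cell cannot be told apart.

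The responses differed in 5382 of 19505 genes, 27.6% of those tested (limma, Benjamini-Hochberg adjusted p under 0.05). The spinal response was the higher in 2541 genes (13.0%) and the lower in 2841 (14.6%), and the median difference over all genes was -0.01. Within day 7 the tissues differed in 9178 genes (47.1%; 22.8% higher and 24.3% lower in spinal cord), and within controls in 6778 (34.8%; 17.2% higher and 17.6% lower). The spinal cord itself changed in 7850 genes (40.2%; 18.1% rose and 22.2% fell) and the cerebrum in 2401 (12.3%; 7.06% rose and 5.24% fell). Among the genes with the higher spinal response, 1470 rose in the spinal cord without a call in the cerebrum, 585 rose in both, 20 rose in the spinal cord and fell in the cerebrum, and 110 fell in the cerebrum alone. Among the genes with the lower spinal response, 2031 fell in the spinal cord without a call in the cerebrum, 160 fell in both, and 33 fell in the spinal cord and rose in the cerebrum. Differences above 2 on the log2 scale, a 4-fold ratio of the responses, numbered 200 higher and 49 lower.

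The values of the spinal day 7 arrays were spread more widely over genes than those of the cerebral day 7 arrays (SD over genes 0.69 to 0.81 against 0.30 to 0.31). Quantile normalisation, which gives every array the same spread, left 2911 calls, 1270 higher and 1641 lower. Of 140 genes named, 31 kept their direction but lost their call with it. The spinal cord had 5232 responses and the cerebrum 3470 with quantile normalisation, against 7850 and 2401 without it. For these counts the zero and its range were not rebuilt on the normalised values, so they mix the scales.

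**Figure D2:**
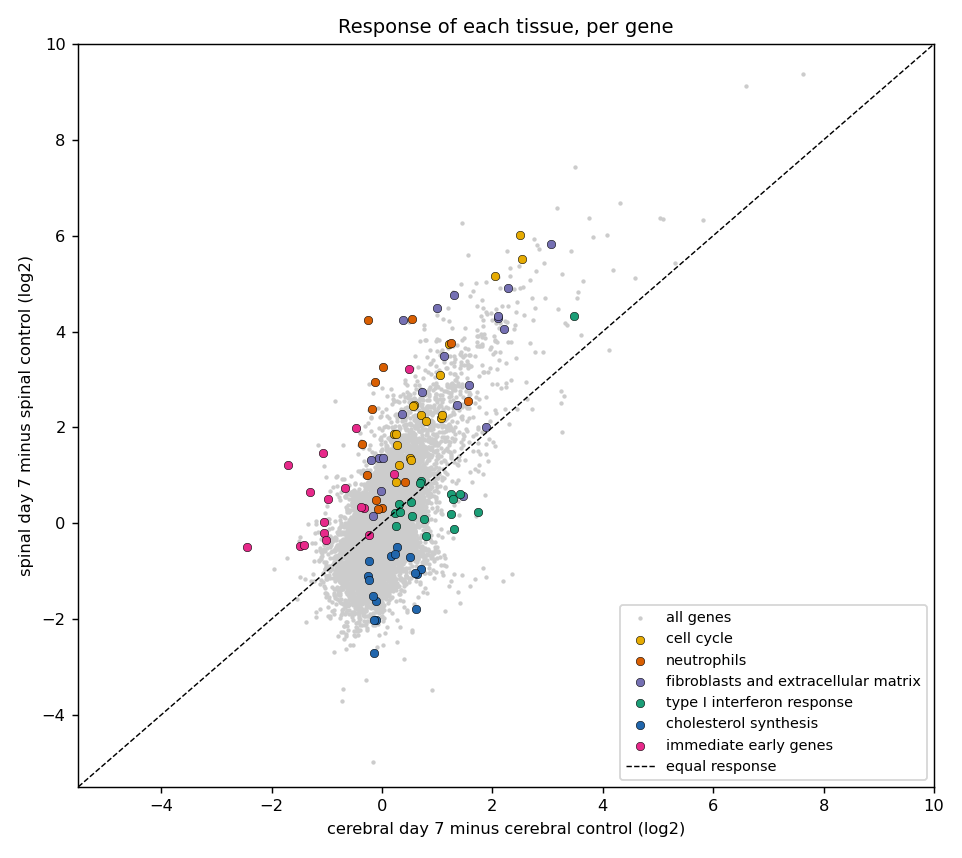
Response of the spinal cord (vertical axis) against that of the cerebrum (horizontal axis) for every gene, both day 7 minus control on the log2 scale, with 6 gene lists in colour and the line of equal response dashed. Neutrophil, matrix and cell cycle genes lie mostly above the line, with list medians of the difference of 2.01, 1.88 and 1.58, and cholesterol synthesis and interferon genes mostly below it, with medians of -1.44 and -0.39.

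Neutrophils are short-lived granulocytes that reach injured tissue early and carry granules of antimicrobial proteins. Of 13 genes measured, 10 had the higher spinal response and 0 the lower, with a median difference of 2.01 on the log2 scale. In the cerebrum 2 of the 13 rose. Ngp, a granule protein, had 6.05, 5.59, 3.77 and 5.60 on the spinal day 7 arrays and -0.92, -0.88, -0.89 and -0.57 on the cerebral ones, against 0.91, 2.07, 1.28 and 0.54 in spinal controls and -0.30, -0.50, -0.51 and -0.15 in cerebral controls. The day 7 groups lay far apart, and the control groups also did not overlap. The difference of responses was 4.50 ± 0.50 (SE, adjusted p = 7.89e-08, limma), a 22.6-fold ratio.

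S100a8 and S100a9, the calprotectin subunits that neutrophils release, differed by 3.72 ± 0.67 and 3.25 ± 0.56, and Camp, an antimicrobial peptide precursor, by 3.07 ± 0.42. Mmp8, the neutrophil collagenase, was the one granule gene among these that also rose in the cerebrum, at 1.24, against 3.75 in the spinal cord. Cxcr2, the chemokine receptor that draws neutrophils, and Mmp9, a gelatinase, did not pass the test, at 0.31 and 0.45. With quantile normalisation 7 of the 13 passed, and Mmp8 did not (0.80, adjusted p = 0.126).

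Arg1, arginase 1 of alternatively activated macrophages, had the largest positive difference of all named genes. Its values were 5.67, 5.54, 5.07 and 6.33 in spinal day 7 and 0.95, 0.85, 0.42 and 0.59 in cerebral day 7, against -0.24, -0.57, -0.50 and -0.18 in spinal controls and -0.73, -0.38, -0.71 and -0.20 in cerebral controls. The lowest spinal day 7 array exceeded the highest cerebral one by more than the range of either group, while the control groups overlapped. The spinal cord rose 76.9-fold and the cerebrum 2.72-fold, a difference of 4.82 ± 0.62 (adjusted p = 7.43e-07).

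Among 15 genes of monocytes and macrophages, 8 had the higher spinal response and 0 the lower, with a median of 1.33. F13a1, a coagulation factor subunit made by monocytes, rose by 2.65 in the spinal cord with 0.10 in the cerebrum. Lyz2, lysozyme of all myeloid cells, rose in both tissues, by 6.37 and 5.04, and its difference of 1.33 ± 0.68 missed the threshold (adjusted p = 0.153) and turned to -0.99 with quantile normalisation, again without a call. With quantile normalisation 2 of the 15 passed.

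Anpep, aminopeptidase N of myeloid cells and pericytes, had 4.47, 4.65, 4.14 and 4.05 in spinal day 7 and 0.44, 0.62, 0.63 and -0.05 in cerebral day 7, against -1.34, 0.90, -1.03 and -0.22 in spinal controls and -0.46, -0.41, 0.09 and -0.40 in cerebral controls. The day 7 groups lay apart and the control groups overlapped, and the difference was 4.05 ± 0.53 (adjusted p = 1e-06). Clec4d, a myeloid C-type lectin, differed by 3.56, and Adam8, a metalloprotease of activated leukocytes, by 3.42. Lbp, which carries bacterial lipopolysaccharide, differed by 3.71 and Anxa1, an anti-inflammatory annexin, by 3.53.

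Of 14 lymphocyte genes 1 passed, against 27.6% of all genes. It was Il7r, the interleukin 7 receptor, at 3.29 ± 0.35. Its spinal day 7 values were 4.44, 4.23, 3.23 and 3.06, against 0.03 to 0.12 in cerebral day 7. The T cell receptor chain gene Cd3e and the B cell gene Ms4a1 stood at 0.11 and -0.06. The median of the list was 0.16.

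**Figure D3:**
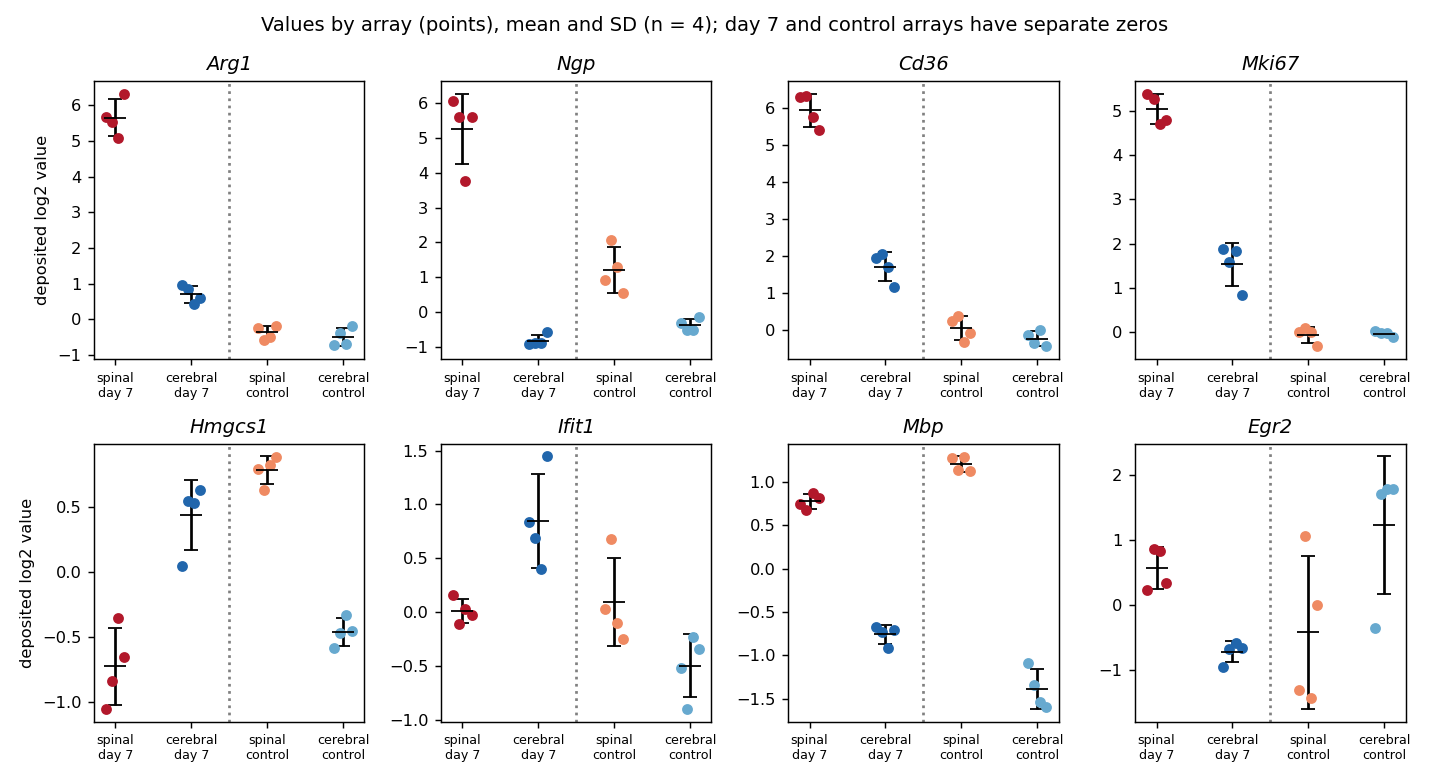
Deposited log2 values of 8 genes on each array (points), with mean and SD (n = 4), for spinal day 7, cerebral day 7, spinal control and cerebral control. Arg1, Ngp, Cd36 and Mki67 separate the day 7 tissues by 3.49 to 6.07, Hmgcs1 and Ifit1 lie lower in spinal than in cerebral day 7, and Mbp lies higher in the spinal groups at both times. The dotted line parts arrays with separate zeros.

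Activated phagocytes of both origins take up debris through receptors, digest it in lysosomes and export its lipid. Of 16 genes of phagocyte activation, all 16 rose in the spinal cord and all 16 in the cerebrum, so the comparison is of size. The spinal response was the higher in 11 and the lower in 1, with a median of 1.30. With quantile normalisation 1 was higher and 4 were lower, and the median turned to -0.18, so the direction of this list depends on the scaling. Lgals3, galectin 3, had 5.49, 5.39, 4.94 and 4.57 in spinal day 7 and 1.47, 1.82, 1.65 and 1.24 in cerebral day 7, against -0.61, -0.36, -0.73 and -0.69 in spinal controls and -0.85, -0.58, -0.77 and -0.76 in cerebral controls. The day 7 groups did not overlap and the control groups did. The difference of 3.41 ± 0.35 (adjusted p = 3.41e-08) kept its call with every alternative run.

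Trem2, a lipid-sensing receptor of microglia and macrophages, rose 33.8-fold in the spinal cord and 6.42-fold in the cerebrum, a difference of 2.40 ± 0.47 that fell to 0.18 with quantile normalisation (adjusted p = 0.799). Gpnmb, a glycoprotein of lipid-laden phagocytes, had rises of 9.13 in the spinal cord and 6.59 in the cerebrum and a difference of 2.54 ± 0.81, or 0.31 with quantile normalisation (adjusted p = 0.835). For other members the fitted responses were close in size. Cst7, a cysteine protease inhibitor of activated microglia, rose by 2.60 in the spinal cord and 2.62 in the cerebrum, and the 95% interval of the difference ran from -0.84 to 0.79. Cd63, a tetraspanin of late endosomes, rose by 1.70 and 1.58, with an interval from -0.20 to 0.45. With quantile normalisation both passed the test as lower in the spinal response, Cst7 at -1.40 (adjusted p = 0.0323) and Cd63 at -0.65 (adjusted p = 0.00298). The one member with a lower spinal response was Csf1, the growth factor of microglia and macrophages, at -0.52 ± 0.20 (adjusted p = 0.0442), a call lost in 13 of 28 alternatives.

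The receptors for immunoglobulin had 6 of 7 genes higher and 0 lower, with a median of 1.77, and 1 of 7 higher with quantile normalisation. Fcgr2b, the inhibitory receptor, differed by 2.53 ± 0.26, Fcgr4 by 2.26 ± 0.34 and Fcgr3 by 2.17 ± 0.23, both activating receptors, and all 3 lost their calls with quantile normalisation (0.59, 0.55 and 0.29). Syk, the kinase below them, rose by 1.50 in the spinal cord with 0.16 in the cerebrum and kept its call with every alternative run. All 5 measured genes of the phagocyte NADPH oxidase, which makes superoxide, were higher, from Ncf1, an organising subunit, at 1.04 to Cybb, the catalytic subunit, at 2.38. With quantile normalisation 0 of the 5 passed and the median was 0.31.

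Complement tags debris for uptake, and 9 of its 13 genes had the higher spinal response, with a median of 1.12 and 0 lower. C3ar1, the receptor for C3a, differed by 3.18 ± 0.39 and Itgb2, a subunit of complement receptor 3, by 1.78 ± 0.21. C4b, which is cleaved in the classical pathway, rose by 1.96 in the spinal cord and 1.75 in the cerebrum and did not pass the test, with a difference of 0.21 that turned to -0.61 with quantile normalisation. With quantile normalisation 3 were higher and 1 lower. C1qa, C1qb and C1qc, the chains of C1q, differed by 1.17, 1.28 and 1.94. With quantile normalisation they stood at -0.89, -0.77 and -0.33, so their direction depends on the scaling. Of these negative values only that of C1qb passed the test (adjusted p = 0.0314).

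Cd36, a scavenger receptor for oxidised lipid, had the largest difference among 14 genes of lipid uptake, storage and efflux. Its values were 6.29, 6.30, 5.73 and 5.40 in spinal day 7 and 1.94, 2.05, 1.71 and 1.17 in cerebral day 7, against -0.31 to 0.39 in spinal controls and -0.43 to 0.01 in cerebral controls. The spinal cord rose 172-fold and the cerebrum 11.3-fold. The difference was 3.92 ± 0.40 (adjusted p = 2.9e-08). Abca1, which exports cholesterol from the cell, differed by 3.03 ± 0.33, and by 1.02 (adjusted p = 0.0578) with quantile normalisation. In all 9 genes of the list were higher and 0 lower, with a median of 1.06, and 2 higher and 1 lower with quantile normalisation. Plin2, the coat of lipid droplets, rose by 6.33 in the spinal cord and 5.81 in the cerebrum, with an interval of the difference from -0.27 to 1.30. Its direction depends on the scaling, since it passed as lower in the spinal response with quantile normalisation (-1.66, adjusted p = 0.00364) and with arrays scaled to 1 spread (-1.12, adjusted p = 0.0383).

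Genes of the lysosome followed with 11 of 18 higher and 1 lower, and a median of 0.83 that became -0.04 with quantile normalisation. Atp6v0d2, a proton pump subunit of macrophages and osteoclasts, led at 3.14 ± 0.33, or 1.06 (adjusted p = 0.0534) with quantile normalisation. Ctsc, cathepsin C, which activates granule proteases, stood at 2.18 ± 0.34. The member with the lower spinal response was Mcoln1, a calcium channel of the lysosome, at -0.55. Presentation by MHC class II had 3 of 10 higher and 0 lower, against 13.0% and 14.6% of all genes. Its median was 0.58, and -0.02 with 0 members called with quantile normalisation. MHC class I and its proteasome had 3 of 11 higher and 0 lower, against the same shares. The median was 0.17, and -0.12 with 0 members called with quantile normalisation.

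Cytokines divided. Of 25 genes 6 had the higher spinal response and 1 the lower, against 13.0% and 14.6% of all genes. Il1rn, the interleukin 1 receptor antagonist, differed by 2.30 ± 0.43, Cxcl16, a chemokine and scavenger receptor, by 2.16 ± 0.42 and Tgfb1, a driver of scar formation, by 1.84 ± 0.37, though Cxcl16 and Tgfb1 lost their calls with quantile normalisation. Il1b, Tnf and Il6, the classical inflammatory cytokines, stood at 0.18, 0.10 and 0.23, did not pass the test, and were not called in either tissue. Il18, an inflammasome product, fell in the spinal cord by 0.81 with 0.41 in the cerebrum, a difference of -1.22 ± 0.18 (adjusted p = 6.68e-06).

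Scar genes rose in both tissues, and more of them in the spinal cord. Of 20 genes of fibroblasts and extracellular matrix, 18 rose in the spinal cord and 10 in the cerebrum, and the spinal response was the higher in 15 and the lower in 1, with a median of 1.88. Col5a1, a fibrillar collagen chain, had 3.33, 3.97, 3.61 and 4.06 in spinal day 7 and 0.11, 0.12, 0.30 and -0.16 in cerebral day 7, against -0.97, 0.46, -0.64 and -0.32 in spinal controls and -0.55, -0.01, 0.01 and -0.12 in cerebral controls. The day 7 groups lay apart and the control groups overlapped. The difference was 3.85 ± 0.39 (adjusted p = 2.46e-08), with 4.23 in the spinal cord and 0.38, not called, in the cerebrum.

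Thbs1, thrombospondin 1, which activates TGF-beta, differed by 3.50 ± 0.51 and Tnc, tenascin C of scar matrix, by 3.47 ± 0.40. Col1a1, Col1a2 and Col3a1, the main collagens of fibrous tissue, differed by 2.17, 2.38 and 2.63, and by 0.68, 1.05 and 0.84 without a call with quantile normalisation, which left 7 of the 20 higher. Postn, periostin, rose in both tissues, by 5.83 and 3.06. Sparc, a collagen-binding protein of glia and vessels, was the member with the lower spinal response, at -0.89 ± 0.21. Genes of the meninges, a source of fibroblasts, had 0 of 10 called with a median of 0.99. When spinal controls 2 and 4 were left out, 9 of 10 were higher with a median of 2.11. Those controls had the highest scores for this list, so leaving them out raises its difference by construction. The matrix list had 17 higher and a median of 2.53 without those controls.

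Pericytes and smooth muscle, the mural cells of vessels, had 6 of 13 genes higher and 0 lower, 6 also with quantile normalisation. The median was 0.98, and 1.63 with spinal controls 1 and 3 only. The 6 were Anpep, Tagln and Acta2 of the contractile cytoskeleton, Pdgfrb, the receptor that keeps pericytes on vessels, Cspg4 and Cnn1. Tagln differed by 2.99 ± 0.37 and Acta2 by 2.53 ± 0.42. Rgs5, a pericyte marker, stood at -0.09 and did not pass the test. Endothelial genes had 2 of 16 higher and 1 lower, shares no larger than the 13.0% and 14.6% of all genes. Their median was 0.08, and 0 were higher with quantile normalisation.

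All 18 measured cell cycle genes had the higher spinal response, with a median of 1.58. All 18 rose in the spinal cord and 9 in the cerebrum. Mki67, a nuclear protein of dividing cells, had 5.38, 5.26, 4.69 and 4.79 in spinal day 7 and 1.89, 1.59, 1.84 and 0.84 in cerebral day 7, against -0.32 to 0.10 in spinal controls and -0.09 to 0.03 in cerebral controls. The spinal cord rose 65.1-fold and the cerebrum 5.68-fold. The difference was 3.52 ± 0.50 (adjusted p = 3.81e-06), and 1.38 (adjusted p = 0.0591) with quantile normalisation.

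Cdk1, the kinase that starts mitosis, differed by 2.97 ± 0.50, Plk1, a mitotic kinase, by 2.54 ± 0.38, and Top2a, which untangles chromosomes, by 2.04 ± 0.31. The lowest were Aurka, a kinase of the spindle poles, at 0.61 ± 0.18 and Rrm2, which makes deoxynucleotides, at 0.78 ± 0.22. With quantile normalisation 4 of the 18 passed and the median was 0.67. With arrays scaled to 1 spread 12 passed.

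Promoters of mitotic genes are known for CCAAT boxes and for TTTGAA, the element bound by the DREAM complex. CCAAT, read on both strands, lay between 250 bases before and 50 after the start in 13 of 14 cell cycle genes with a promoter in the RefSeq table, against 41.1% of 27025 genes. TTTGAA, also on both strands, lay in 8 of the 14, against 20.2%. The promoter of Cdk1 is shown since it held 3 CCAAT and 2 TTTGAA matches, in capitals (RefSeq, GRCm38.p6, chr10:69352863-69353162, minus strand).
Cdk1: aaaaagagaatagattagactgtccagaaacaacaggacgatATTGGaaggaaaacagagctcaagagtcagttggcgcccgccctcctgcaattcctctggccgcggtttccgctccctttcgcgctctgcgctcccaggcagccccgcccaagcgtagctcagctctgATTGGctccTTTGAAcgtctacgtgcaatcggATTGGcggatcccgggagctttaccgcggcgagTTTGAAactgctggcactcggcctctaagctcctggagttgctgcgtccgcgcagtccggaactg
A match is a run of letters, not a measured binding site.

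Reactive astrocytes, which border the lesion, had 6 of 17 genes higher and 1 lower, against 13.0% and 14.6% of all genes. Vim, vimentin, differed by 1.65 ± 0.26 and Emp1, a membrane protein, by 2.17 ± 0.51. Neither passed with quantile normalisation, which left 1 higher. Gfap, the astrocyte filament protein, went the other way. It had 2.507, 2.275, 2.001 and 2.295 in spinal day 7 and -0.04, -0.21, -0.25 and -0.03 in cerebral day 7, against 0.25, -0.19, 0.55 and -0.05 in spinal controls and -4.24, -3.56, -3.16 and -3.48 in cerebral controls. Spinal values lay above cerebral ones at both times, by 2.40 at day 7 and 3.75 in the controls. Gfap rose in both tissues, 3.75-fold in the spinal cord and 9.56-fold in the cerebrum, a difference of -1.35 ± 0.37 (adjusted p = 0.00548). Serpina3n, a protease inhibitor of reactive astrocytes, rose by 3.93 in the spinal cord and 3.60 in the cerebrum. Its difference of 0.34 did not pass the test and turned to -0.53 with quantile normalisation.

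Genes of resting astrocytes had 2 of 13 lower and 0 higher, a share near the 14.6% of all genes called lower. These were Slc7a10, an amino acid transporter, at -1.76 ± 0.40, and Ntsr2, a neurotensin receptor, at -1.27 ± 0.30. Both fell in the spinal cord and neither was called in the cerebrum.

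Homeostatic microglia had 4 of 13 higher and 2 lower, against 13.0% and 14.6% of all genes. The list median was 0.29, and -0.12 with quantile normalisation. Mertk, a receptor for dying cells, had 1.92, 2.17, 1.75 and 1.61 in spinal day 7 and -0.09 to 0.38 in cerebral day 7, against -1.06 to -0.55 in spinal controls and -0.00 to 0.49 in cerebral controls. The order of the tissues was the opposite at the 2 times, and the difference was 2.83 ± 0.24 (adjusted p = 1.07e-09). P2ry12 and Tmem119, the markers of resting microglia, were not called in either tissue, and their intervals ran from -0.78 to 0.66 and from -0.28 to 0.60. Siglech, a lectin of microglia, was lower at -1.32 ± 0.42.

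Type I interferon genes had a negative median difference. Interferon-stimulated genes block viral replication and are switched on by STAT and IRF factors. Of 17 genes measured, 12 rose in the cerebrum and 4 in the spinal cord. The spinal response was the lower in 5 and the higher in 0, against 14.6% and 13.0% of all genes, with a median of -0.39. Ifit3, which binds foreign RNA in a complex, had 0.27, 0.13, 0.02 and -0.02 in spinal day 7 and 1.37, 1.40, 1.09 and 1.87 in cerebral day 7, against 0.08, -0.10, -0.38 and -0.20 in spinal controls and -0.41, -0.35, -0.15 and -0.33 in cerebral controls. The day 7 groups did not overlap and the control groups did. The cerebrum rose 3.32-fold and the spinal cord was not called, a difference of -1.49 ± 0.29 (adjusted p = 0.000193).

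Ifit1 and Ifit2, relatives of Ifit3, differed by -1.42 ± 0.46 and -1.07 ± 0.28, Ifi27l2a, an interferon-induced membrane protein, by -1.04 ± 0.21 and Isg15, a ubiquitin-like modifier, by -0.79 ± 0.27. Ifit1 and Isg15 lost their calls when single arrays were left out. Bst2, which tethers virus to the cell, rose in both tissues, by 4.32 in the spinal cord and 3.48 in the cerebrum. Its difference of 0.84 did not pass the test and turned to -0.94 with quantile normalisation. The count of lower members ran from 3 to 8 over the alternatives, with a median below 0 in each.

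The interferon-stimulated response element repeats GAAA. A pair of GAAA runs with any 2 bases between them, read on both strands, lay in the promoter window of 8 of 12 listed genes with a RefSeq promoter, against 3.99% of all genes. The window of Ifit3 is shown since it held 2 matches, in capitals as the reverse complement (RefSeq, GRCm38.p6, chr19:34583279-34583578, plus strand).
Ifit3: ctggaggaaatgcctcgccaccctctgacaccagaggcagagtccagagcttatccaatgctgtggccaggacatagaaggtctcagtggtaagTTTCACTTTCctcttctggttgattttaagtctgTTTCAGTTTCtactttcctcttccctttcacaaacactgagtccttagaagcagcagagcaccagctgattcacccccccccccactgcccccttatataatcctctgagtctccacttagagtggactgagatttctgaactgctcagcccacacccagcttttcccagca

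Cholesterol synthesis had all 16 measured genes lower and 0 higher, with a median of -1.44. In the adult nervous system cholesterol is made locally, and oligodendrocytes need it for myelin. In the spinal cord 15 of the 16 fell, and in the cerebrum 2 rose and 0 fell. Hmgcs1, which makes the precursor of mevalonate, had -1.06, -0.84, -0.35 and -0.66 in spinal day 7 and 0.05, 0.55, 0.53 and 0.64 in cerebral day 7, against 0.80, 0.63, 0.82 and 0.89 in spinal controls and -0.59, -0.47, -0.33 and -0.45 in cerebral controls. The order of the tissues was turned, with spinal arrays the lower at day 7 and the higher in the controls, and neither pair of groups overlapped. The difference was -2.41 ± 0.23 (adjusted p = 6.19e-09).

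Insig1, which holds back the SREBP regulators when sterols are plentiful and is itself one of their targets, had the largest difference of the list, -2.56 ± 0.28. Its values were -0.82, -1.04, -0.67 and -0.69 in spinal day 7 and -0.20 to 0.06 in cerebral day 7, against 0.61 to 1.03 in spinal controls and -1.36 to -0.70 in cerebral controls. Msmo1 and Sc5d, enzymes late in the pathway, differed by -1.91 ± 0.20 and -1.87 ± 0.13, and Sqle, the squalene epoxidase, by -1.62 ± 0.25. Srebf2, the gene of the regulator SREBP2, stood at -0.94 ± 0.15. The smallest was Mvk, mevalonate kinase, at -0.56 ± 0.19, which lost its call in 11 of 28 alternatives. Between 14 and 16 members passed in each of the alternatives run, quantile normalisation included.

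CCAAT, which binds the SREBP partner NF-Y, lay in the promoter window of 12 of 12 genes of the list with a RefSeq promoter, against 41.1% of all genes. TCACCCCAC, a sterol response element, lay in 1 of the 12, against 0.614%. That one was Hmgcs1, shown with its 4 CCAAT matches, all on the reverse strand, and the TCACCCCAC match in capitals (RefSeq, GRCm38.p6, chr13:119690101-119690400, plus strand).
Hmgcs1: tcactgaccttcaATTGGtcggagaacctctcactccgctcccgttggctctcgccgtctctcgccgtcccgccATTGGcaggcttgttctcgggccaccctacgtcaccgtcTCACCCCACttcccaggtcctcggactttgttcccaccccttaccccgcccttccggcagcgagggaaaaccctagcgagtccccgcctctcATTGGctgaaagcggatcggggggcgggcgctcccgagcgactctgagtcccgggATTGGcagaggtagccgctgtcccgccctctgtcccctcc

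Genes of myelin and mature oligodendrocytes had 15 of 19 lower and 0 higher, with a median of -1.25. Myelin transcripts were far higher in spinal than in cerebral controls, by a list median of 2.25, and by 1.45 at day 7. Mbp, myelin basic protein, had 0.75, 0.67, 0.87 and 0.82 in spinal day 7 and -0.67, -0.73, -0.91 and -0.70 in cerebral day 7, against 1.27, 1.13, 1.29 and 1.12 in spinal controls and -1.08, -1.34, -1.54 and -1.60 in cerebral controls. The spinal arrays were the higher at both times, and the gap narrowed by 1.06 ± 0.16 (adjusted p = 6.68e-06). In the cerebrum 1 gene rose and 18 were not called. In the spinal cord 16 were not called and 3 fell, among them Opalin, a protein of myelinating oligodendrocytes, by 2.02.

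Klk6, a protease of mature oligodendrocytes, differed by -2.91 ± 0.38, with -2.17 against cerebral controls 1 and 2 only and -3.65 against 3 and 4 only, and Fa2h, which makes myelin lipid, by -2.46 ± 0.39. Mog and Mag, proteins of the outer and inner myelin surface, differed by -1.59 and -1.25. Cnp, a myelin enzyme, and Myrf, the transcription factor of myelination, stood at -0.12 and -0.41 and did not pass the test. Between 11 and 16 members passed over the alternatives. Oligodendrocyte precursors had 3 of 14 higher and 4 lower, against 13.0% and 14.6% of all genes. Cspg4 and Vcan, proteoglycans that pericytes and macrophages also express, and Sox4 were the higher, though Vcan lost its call with quantile normalisation (0.21, adjusted p = 0.569). Sox10 and Olig2, transcription factors of the lineage, were lower at -1.12 and -0.69, and Olig2 lost its call in 11 of 28 alternatives.

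Neuronal genes fell in the spinal cord. Of 18 genes of presynaptic terminals and neurofilaments, 16 fell in the spinal cord and 4 in the cerebrum, and the spinal response was the lower in 14 and the higher in 0, with a median of -0.75. Syt1, the calcium sensor of vesicle release, had -3.24, -3.84, -2.87 and -2.65 in spinal day 7 and 0.66 to 0.77 in cerebral day 7, against -1.08 to -0.81 in spinal controls and 0.96 to 1.15 in cerebral controls. The difference was -1.87 ± 0.23 (adjusted p = 4.42e-07). Rbfox3, the NeuN antigen, differed by -1.61 ± 0.23 and Snap25, of the fusion machinery, by -1.15 ± 0.22. With quantile normalisation 8 were lower and 1 was higher, Stx1a, a syntaxin of the terminal, at 1.22 (adjusted p = 0.00556), against 0.46 without it.

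Transmitter genes had 10 of 12 lower and 0 higher, with a median of -1.46. Glra1, the glycine receptor subunit of spinal inhibition, had 2.12, 0.96, 2.06 and 2.07 in spinal day 7 and -1.35, -1.48, -1.53 and -0.96 in cerebral day 7, against 1.94, 1.49, 2.13 and 1.63 in spinal controls and -4.70, -3.61, -5.51 and -5.14 in cerebral controls. The difference was -3.40 ± 0.39 (adjusted p = 1.45e-07), with neither tissue's own response called. Against cerebral controls 1 and 2 only the difference was -2.82, and against 3 and 4 only -3.99. Slc17a6, the vesicular glutamate transporter of subcortical and spinal neurons, fell in the spinal cord by 1.07 and rose in the cerebrum by 1.44. Its difference of -2.52 was -1.97 with cerebral controls 1 and 2 only and -3.06 with 3 and 4 only.

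Ebf3, a neuronal transcription factor, differed by -3.40, Tac2, the precursor of neurokinin B, by -3.23, Calb2, the calcium buffer calretinin, by -3.01, and Oprm1, the mu opioid receptor, by -2.78. Ntng1, an axon guidance protein of thalamic neurons, fell in the spinal cord by 2.27 and differed by -2.82, while Lypd6b differed by -2.99 and Gng8, a G protein subunit, by -2.81. Calb2 rose in the cerebrum by 1.89, where the day 7 arrays ranged from -0.01 to 0.08 and the controls from -3.50 to -1.40. Its difference was -2.21 with cerebral controls 1 and 2 only, which had the higher thalamic scores, and -3.81 with 3 and 4 only. Ebf3, Tac2 and Oprm1 stood at -2.70, -2.77 and -2.29 with cerebral controls 1 and 2 only. They stood at -4.09, -3.70 and -3.27 with 3 and 4 only. Hox genes of the trunk had 8 of 16 lower and 0 higher, with a median of -0.69. Hoxb9 fell 4.29-fold in the spinal cord, a difference of -2.03 ± 0.30, while Hoxc8 did not pass the test at -0.14.

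Muscle genes lay among the largest negative differences, and rested on the controls. Myh4, the fast myosin heavy chain of skeletal muscle, had 0.10, 0.08, 0.18 and 0.51 in spinal day 7 and -0.61 to -0.23 in cerebral day 7, against 7.73, 8.04, 4.15 and 0.93 in spinal controls and -0.41 to -0.07 in cerebral controls. The spinal controls alone were high, and they ran over a wide range. The difference was -4.83 ± 1.24 (adjusted p = 0.00349), and -2.16 (adjusted p = 0.0774) with spinal controls 3 and 4 only. Atp2a1, the calcium pump of fast muscle, had 0.34, -0.11, 0.42 and 2.02 in spinal day 7 and -0.14, 0.11, -0.65 and -0.18 in cerebral day 7, against 6.85, 6.32, 3.49 and 0.98 in spinal controls and -0.43, -0.73, -1.42 and -0.78 in cerebral controls. It differed by -4.37 ± 1.08, and by -2.19 (adjusted p = 0.0563) with those 2 controls. Myh8, another myosin, differed by -2.99 ± 1.01, and by -0.69 (adjusted p = 0.507). The list of 14 muscle genes had 5 lower and a median of -1.16, and 1 lower, 1 higher and a median of 0.09 with those 2 controls.

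Pou4f1, a transcription factor of sensory neurons, had -1.24, 0.06, 0.99 and 0.54 in spinal day 7 and -0.45 to 0.05 in cerebral day 7, against 0.51, 4.26, 1.03 and 3.89 in spinal controls and -1.61 to -0.21 in cerebral controls. Its difference of -2.99 ± 1.01 (adjusted p = 0.026) became -1.33 (adjusted p = 0.323) with spinal controls 1 and 3 only. Chrna3, a nicotinic receptor subunit of peripheral and habenular neurons, followed the same controls, at -0.24, 1.91, -0.31 and 1.50, and its difference of -3.08 was -2.09 (adjusted p = 0.00486) with spinal controls 1 and 3 only. Of 9 sensory neuron genes 1 was lower, with a median of -1.02 that became 0.68 without spinal controls 2 and 4.

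Immediate early genes, transcription factors and feedback proteins that cells switch on within minutes of a stimulus, had 14 of 17 higher and 0 lower, with a median of 1.07. The tissues lay further apart in the controls than at day 7. The mean of the list was -0.03 to 0.10 in spinal day 7 and -0.02 to 0.19 in cerebral day 7, against -0.85 to -0.56 in spinal controls and 0.29 to 0.98 in cerebral controls. In the cerebrum 7 genes fell and 0 rose, and in the spinal cord 6 rose and 0 fell. Egr2 had 0.24, 0.87, 0.82 and 0.34 in spinal day 7 and -0.95 to -0.57 in cerebral day 7, against -1.30, 1.06, -1.42 and -0.00 in spinal controls and -0.35, 1.71, 1.78 and 1.77 in cerebral controls. Its difference was 2.92 ± 0.61 (adjusted p = 0.000457).

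Atf3, a member that damaged neurons express, had a gap between the tissues of 2.72 at day 7 and -0.02 in the controls. It rose 9.35-fold in the spinal cord and differed by 2.74 ± 0.32. Dusp6, the phosphatase that ends ERK signalling and no member of the list, had 1.36, 1.54, 1.20 and 1.13 in spinal day 7 and -0.60 to -0.08 in cerebral day 7, against -1.79 to -1.11 in spinal controls and -0.07 to 0.82 in cerebral controls. The order of the tissues was turned between the times, and the difference was 3.41 ± 0.25 (adjusted p = 1.46e-10). It rose in the spinal cord by 2.55 and fell in the cerebrum by 0.86. The opposite pattern was seen in Itih3, an inhibitor family protein that binds hyaluronan, which fell in the spinal cord by 1.16 and rose in the cerebrum by 1.68. Its difference of -2.84 was -2.04 with cerebral controls 1 and 2 only and -3.64 with 3 and 4 only. Junb, an AP-1 subunit, differed by 2.47 ± 0.32.

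**Figure D4:**
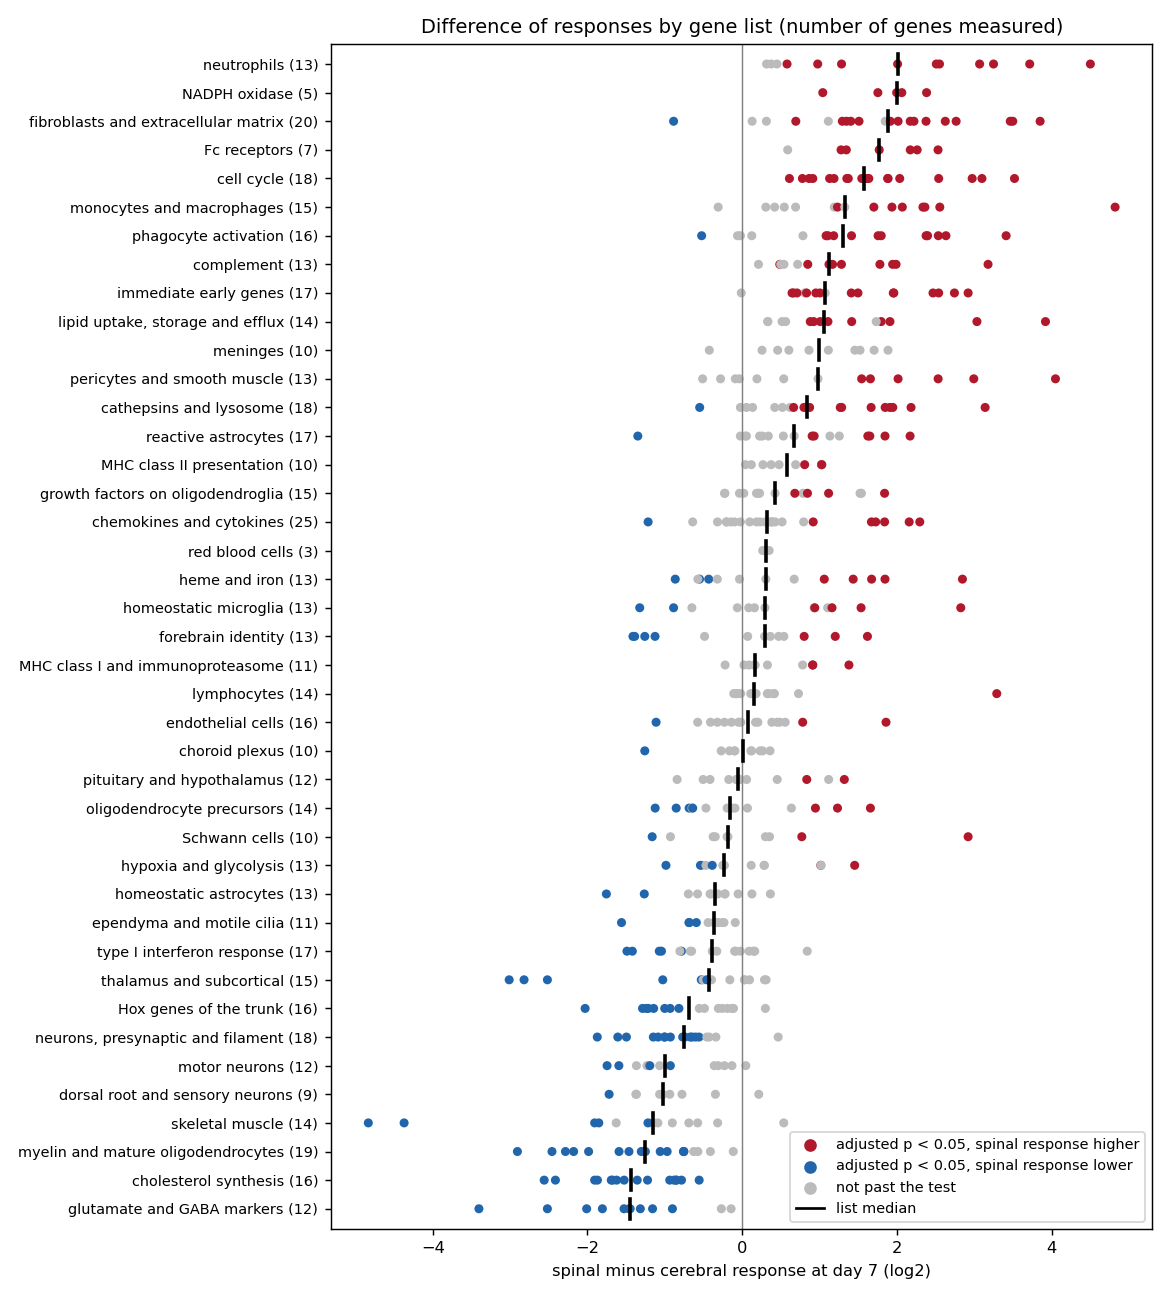
Difference of responses (horizontal axis, log2, spinal minus cerebral) of every measured member of 41 gene lists, with those past the test in colour and the list median as a bar. Neutrophils have the highest median at 2.01 and transmitter genes the lowest at -1.46, but with quantile normalisation these places go to immediate early genes at 1.48 and cholesterol synthesis at -1.33, and matrix genes exceed neutrophils with spinal controls 1 and 3 only (2.53 against 1.81). With quantile normalisation the medians of phagocyte activation, lysosome, MHC class I, MHC class II, homeostatic microglia and choroid plexus turn below 0. That of pituitary and hypothalamus then turns above 0. The median of skeletal muscle turns above 0 with spinal controls 3 and 4 only. Those of sensory neurons and Schwann cells turn above 0 with spinal controls 1 and 3 only. That of forebrain genes turns below 0 (-0.07) with cerebral controls 1 and 2 only.

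Heme and iron genes had 5 of 13 higher and 3 lower, against 13.0% and 14.6% of all genes, and 1 higher with quantile normalisation. Hmox1, which breaks down heme, differed by 1.67 ± 0.52 and Slc11a1, an iron transporter of phagosomes, by 2.85 ± 0.34. Slc40a1, which exports iron from the cell, was lower at -0.55 ± 0.20, a call lost in 12 of 28 alternatives. Hypoxia and glycolysis genes had 2 of 13 higher and 3 lower, against 13.0% and 14.6% of all genes. Hk2 and Ldha, enzymes of glycolysis, stood at 1.45 and 1.02, and Bnip3, a mitophagy receptor induced by low oxygen, at -0.99 ± 0.16. Hmox1 and Hk2 lost their calls with quantile normalisation.

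The remaining lists are given against 13.0% of all genes called higher and 14.6% called lower. Growth factors that act on oligodendroglia had 4 of 15 higher and 0 lower, and 0 higher with quantile normalisation. Schwann cell genes had 2 of 10 higher and 1 lower, the higher including Egr2 (2.92), which was also counted among the immediate early genes. Their median of -0.19 turned to 0.47 with spinal controls 1 and 3 only. The median of motor neuron genes was -0.998 and became -0.18 with those controls. Thalamic and subcortical genes had 6 of 15 lower, motor neuron genes 4 of 12 lower and genes of ependyma and motile cilia 4 of 11 lower, with 0 higher in each. Forebrain genes had 3 of 13 higher and 4 lower, and 6 higher and 0 lower with quantile normalisation. The forebrain median of 0.29 turned to -0.07 with cerebral controls 1 and 2 only. Choroid plexus genes had 1 of 10 lower, genes of pituitary and hypothalamus 2 of 12 higher, and genes of red blood cells 0 of 3 called.

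The gap between the tissues was then followed over time, as spinal minus cerebral within control, day 1, day 3 and day 7. These gaps need no rebuilt zero. The list median for matrix genes was 0.63, 0.33, 1.24 and 2.44 in that order, and for phagocyte activation 0.34, 0.22, 1.25 and 1.71. Neutrophil genes had 0.11, 0.70, 1.05 and 2.03. Cell cycle genes had 0.06, -0.68, 0.52 and 1.57, so cerebral arrays were ahead at day 1 and spinal arrays at day 7. Mki67 alone had -0.03, -3.18, 1.31 and 3.49. The gaps of the lists over time were not refitted with quantile normalisation or scaled arrays. The SD over genes of spinal arrays was 0.43 to 0.52 at day 1, 0.51 to 0.69 at day 3 and 0.69 to 0.81 at day 7. In cerebral arrays of these days it was 0.27 to 0.35. The part of this spread in the gaps was not tested.

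Cholesterol synthesis had 1.11, 1.00, 0.73 and -0.38. Of its 16 genes 13 had a lower gap at day 7 than at day 3 and 15 than at day 1, where the background of lower calls was 6.64% and 14.0% of genes. Interferon genes had 0.23, 0.22, 0.46 and -0.02, with 5 of 17 lower against day 3 and 5 against day 1. Over all genes the gap differed from day 1 in 27.4% and from day 3 in 12.9%. All 18 cell cycle genes had a higher gap at day 7 than at day 1, and 12 than at day 3, where the background of higher calls was 13.4% and 6.22%. Immediate early genes had -1.64, 0.14, -0.31 and -0.33, so the control gap stood apart from the gaps at the 3 later times.

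**Figure D5:**
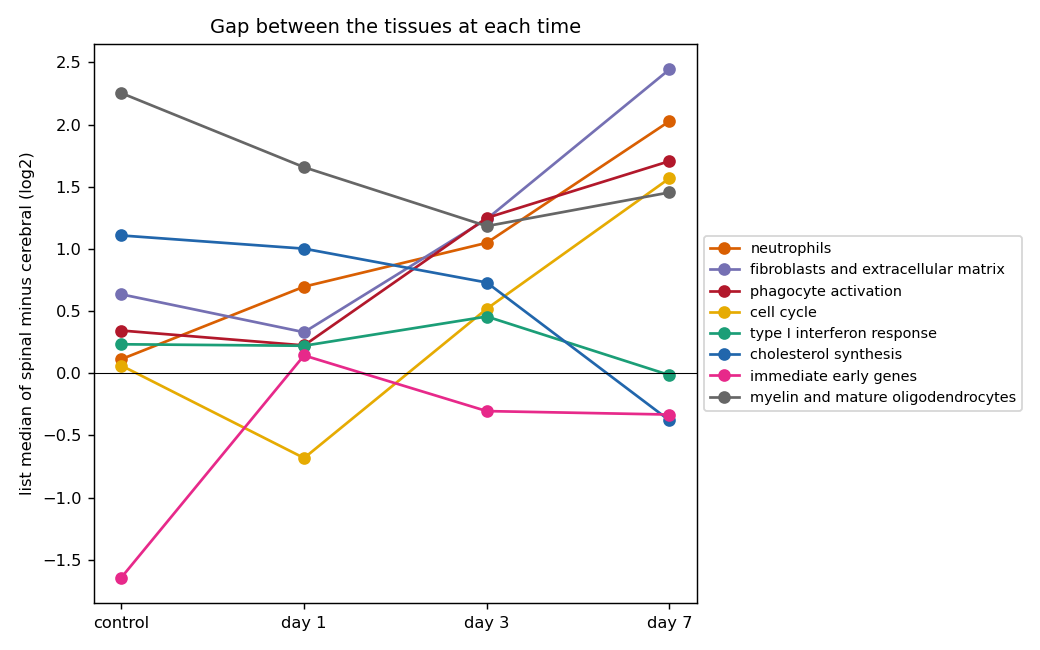
Median spinal minus cerebral gap (vertical axis, log2) of 8 gene lists within control, day 1, day 3 and day 7 (4 spinal and 4 cerebral arrays each). Matrix, phagocyte, neutrophil and cell cycle genes have their highest medians at day 7 (2.44, 1.71, 2.03 and 1.57), cholesterol synthesis falls below 0 at day 7 only (-0.38), and immediate early genes are far below 0 in the controls alone (-1.64). With quantile normalisation the difference of phagocyte activation between day 7 and control turns to -0.18.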

How the data were processed

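Per the labels, tissue was snap frozen, lysed in TRIzol, and 10 ng RNA a sample was labelled with biotin for 1-colour arrays. The deposited values ran from -5.58 to 8.04 and were taken as log2, from their range; no label states the base. The summarisation, software and build were not given in the sources at hand. Of 22206 probes 19572 had 1 gene symbol, giving 19505 genes, and several probes of a gene were averaged. The deposited values were centred per probe: the median over controls and day 1 arrays was 0 in 100% of probes, and over day 7 arrays in 6.08%. Day 7 thus had another zero, rebuilt per probe by taking the day 7 arrays as centred on a median shared with the controls. Of 5147 probes where this could be checked, 86.4% matched, against 70.2% with day 1 and 69.8% with day 3 arrays as partners. The rebuilt zero was a single value in 80.0% of probes. A response of 1 tissue was called only beyond the range of this zero plus an allowance of 0.0889.

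All 32 arrays entered 1 limma fit (limma 3.58.1, R 4.3.3; 24 residual degrees of freedom) with no covariate, and calls needed a Benjamini-Hochberg adjusted p under 0.05. The fit was run on simulated data with independent noise, the same SD in all groups and no shift of the zero. That simulation does not test the rebuilt zero or arrays of unequal quality. Precision is limited by the 4 arrays a group. A filter on dim probes was not possible, since centred values carry no level, and the 50% of genes with the higher SD were used as an alternative. Named genes were the 15 with the largest differences each way past the test, predicted genes, receptor families of smell, small RNAs and receptor segments left out, plus members of the gene lists. The members and lists were chosen with earlier results of these data known. The comparisons with days 1 and 3 and the fit with spinal controls 1 and 3 only were added after the data were seen. Promoters came from RefSeq (GRCm38.p6), and figures and tables used Python 3.11.15.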

Additional observations from a re-analysis of the deposited data

Results flagged for a closer look

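In 4 of 120 groups of 4 arrays checked for the 30 genes with the largest differences, 1 array lay far from the other 3. Chance gives about 1 in 20. Glra1 had 0.96 on 1 spinal day 7 array, and the other 3 lay at 2.06 to 2.12. Ngp had -0.57 and Lbp -0.22 on 1 cerebral day 7 array each. Anpep had 0.0925 on 1 cerebral control array. The differences of these 4 genes passed the test in every alternative run.

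The test of the difference of responses itself was passed by 5382 genes. Among the named genes with the largest differences, 3 moved in opposite directions in the tissues. Dusp6 rose in the spinal cord and fell in the cerebrum, a difference of 3.41. Chrna3, at -3.08, and Itih3, at -2.84, fell in the spinal cord and rose in the cerebrum. Chrna3 was higher in spinal controls 2 and 4, the arrays with the highest sensory neuron scores, and its difference was -2.09 (adjusted p = 0.00486) with spinal controls 1 and 3 only.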

How the results depend on the processing

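No paired analysis was possible because the labels give no replicate numbers. Quantile normalisation gives every array the same spread by construction. It left 2911 differences of responses, 1270 higher and 1641 lower. The spinal cord then had 5232 responses, 2628 of them lower, and the cerebrum 3470, 1644 of them lower. Scaling the arrays to 1 median absolute deviation left 1682 higher differences, with 6143 spinal and 3092 cerebral responses. In both refits the counts for a single tissue kept the zero rebuilt from the values as deposited. With cerebral controls 1 and 2 only, the cerebrum had 1363 responses, 886 higher and 477 lower. Taking the rebuilt zero as exact, which drops the bound on it, gave 4340, with 2252 higher and 2088 lower. Leaving out 1 array at a time gave 665 to 1068 lower responses of the cerebrum, the fewest without cerebral day 7 replicate 2, and 4653 to 5465 differences of responses. Among named genes called in the main fit or in the refit, 5 turned below 0 with quantile normalisation. Of these C1qb (-0.77), Cd63 (-0.65) and Plin2 (-1.66) passed the test as lower, and C1qa (-0.89) and C1qc (-0.33) did not. With scaled arrays Plin2 (-1.12) turned and passed as lower, while C1qa (-0.013) was near 0 and did not pass. Of 140 genes named, 90 kept their call and its direction, or stayed without a call, in all 28 alternatives run on genes. The same held for 122 in the alternatives other than quantile normalisation and scaling. A change of sign in a gene that stayed without a call was not counted. The causes of these shifts were not tested. The median difference over all genes ran from -0.06 to 0.03.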
